A study of Mus musculus with 14 samples.

Results

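The myogenic regulatory factors Myf5, Myf6, Myod1 and Myog are 4 transcription factors of the basic helix-loop-helix family that determine and differentiate skeletal muscle cells. The CUT&Tag peaks around these genes were described in cultured mouse muscle stem cells (MuSCs) with and without BMP6. The peaks were those of 6 consensus lists that overlapped the canonical transcript of a member or the 50 kb on either side of it. This rule gave 113 of the 175565 peaks of all lists, in 3 windows, since Myf5 and Myf6 share a locus. MuSCs came from female mice aged 9 weeks with the genotype C57BL/6N(Tg(Pax7-EGFP)Tajb), were sorted for the Pax7 reporter and grown in culture, so the lists describe cultured cells. All cells, controls included, were starved for 6 h with 200 ng/mL BMPR-1A-Fc, a soluble receptor that captures BMPs. After this, BMP6 was added at 100 ng/mL to one group and its vehicle, 4 mM HCl and 0.1% BSA, to the controls, each for 1 h. Light fixation followed (2 min, 0.1% formaldehyde), and each library was made from 100000 cells. Of 14 libraries, 12 lay behind the lists, 2 biological replicates for each of pSMAD1/5/9, SMAD4 and H3K27ac in each condition, and the 2 without primary antibody were not analysed here.

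MYF5 and MYOD are known to commit cells to the muscle lineage, MYOG drives their terminal differentiation, and MYF6 acts in determination and in mature fibres. All of them bind the E-box, a short motif written CANNTG, with E proteins as partners. BMP receptors phosphorylate SMAD1, SMAD5 and SMAD9, which join SMAD4 and enter the nucleus, and BMP signalling is known to hold back the differentiation of MuSCs, in part through ID proteins that sequester E proteins. CUT&Tag places a transposase at an antibody on chromatin and so maps where the antigen sits, and H3K27ac is a histone mark of active promoters and enhancers.

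A peak was listed when it was reproducible between both replicates at an irreproducible discovery rate (IDR) of at most 0.05. A locus without a peak is therefore one where none reached this threshold, not one shown to be unbound. Positions are those of the peak summit in bp from the transcription start site (TSS), negative upstream along the coding strand. Strength is the rank of a peak by signal in its own list, 1 being the strongest, because the signals of different lists have no stated common scale. The ranks by the first and by the second replicate column of the list follow in that order in parentheses, and they are the only measure of spread. Each list is 1 consensus per condition, so no difference between conditions was tested at any locus.

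The following windows are 200 bp of GRCm39 centred on SMAD4 summits of BMP6-stimulated cells, on the coding strand of the member, with E-boxes in capitals. The 5 windows at Myod1 lie at the 3 strongest pSMAD1/5/9 sites of the locus, at the site nearest upstream of the gene and at the promoter. They are chr7:45986947-45987146 (−38823), chr7:45999626-45999825 (−26144), chr7:46002536-46002735 (−23234), chr7:46020564-46020763 (−5206) and chr7:46025620-46025819 (−150), all on the plus strand.
Myod1 −38823: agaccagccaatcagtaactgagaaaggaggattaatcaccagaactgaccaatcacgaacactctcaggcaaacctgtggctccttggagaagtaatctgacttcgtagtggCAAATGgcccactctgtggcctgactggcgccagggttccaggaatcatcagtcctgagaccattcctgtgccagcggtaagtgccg
Myod1 −26144: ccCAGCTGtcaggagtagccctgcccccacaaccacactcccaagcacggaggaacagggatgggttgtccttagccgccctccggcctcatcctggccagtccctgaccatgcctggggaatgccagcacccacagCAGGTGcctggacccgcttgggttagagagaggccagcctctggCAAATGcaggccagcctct
Myod1 −23234: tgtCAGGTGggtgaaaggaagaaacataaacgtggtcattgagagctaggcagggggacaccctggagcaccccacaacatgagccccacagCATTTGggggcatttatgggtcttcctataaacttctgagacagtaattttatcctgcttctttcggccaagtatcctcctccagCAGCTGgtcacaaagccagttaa
Myod1 −5206: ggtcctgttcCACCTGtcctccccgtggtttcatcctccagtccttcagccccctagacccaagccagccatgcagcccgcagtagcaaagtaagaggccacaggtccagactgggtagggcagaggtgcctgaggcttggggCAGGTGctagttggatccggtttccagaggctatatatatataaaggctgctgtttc
Myod1 −150: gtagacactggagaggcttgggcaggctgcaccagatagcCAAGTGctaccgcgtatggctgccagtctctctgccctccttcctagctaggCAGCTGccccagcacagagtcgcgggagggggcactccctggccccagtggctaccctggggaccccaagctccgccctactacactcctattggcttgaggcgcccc

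The windows at Myog are the strongest SMAD4 site near any of the 4 genes after BMP6, chr1:134173089-134173288 (−44518), and the promoter, chr1:134217460-134217659 (−147), both on the plus strand.
Myog −44518: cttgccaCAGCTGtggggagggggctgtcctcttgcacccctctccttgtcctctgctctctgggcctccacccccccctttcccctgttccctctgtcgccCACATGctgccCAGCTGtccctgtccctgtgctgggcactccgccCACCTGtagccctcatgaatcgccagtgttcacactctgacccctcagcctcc
Myog −147: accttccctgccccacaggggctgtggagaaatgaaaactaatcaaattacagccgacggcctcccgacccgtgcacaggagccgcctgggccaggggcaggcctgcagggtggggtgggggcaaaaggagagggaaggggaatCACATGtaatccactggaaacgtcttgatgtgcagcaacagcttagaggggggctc

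The windows at Myf5 and Myf6 are the one SMAD4 site that both conditions shared, chr10:107335473-107335672 (−13578), and the site inside Myf5, chr10:107320315-107320514 (1580), both on the minus strand, with positions from the TSS of Myf5.
Myf5/Myf6 −13578: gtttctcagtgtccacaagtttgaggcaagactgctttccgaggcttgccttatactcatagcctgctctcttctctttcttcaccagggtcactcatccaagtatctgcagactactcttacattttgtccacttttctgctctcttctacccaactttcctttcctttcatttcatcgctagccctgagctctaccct
Myf5/Myf6 1580: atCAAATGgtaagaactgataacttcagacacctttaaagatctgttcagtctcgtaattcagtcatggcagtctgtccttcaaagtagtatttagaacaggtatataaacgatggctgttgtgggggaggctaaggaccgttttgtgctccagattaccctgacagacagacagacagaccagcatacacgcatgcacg

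The 3 loci differed in the SMADs found there. After BMP6, 9 pSMAD1/5/9 peaks lay near Myod1 and 10 near Myog, and none lay near Myf5 or Myf6. In control cells, Myod1 and Myog each had 1 pSMAD1/5/9 peak, at the promoter, and Myf5 and Myf6 again had none. SMAD4 was found at all 3 loci in both conditions, with 13 peaks at Myod1, 10 at Myog and 3 at Myf5/Myf6 after BMP6, and 8, 5 and 4 in control cells. The whole lists held 7339 pSMAD1/5/9 peaks after BMP6 and 949 in control cells, and 12860 and 8577 SMAD4 peaks.

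Over all 21603 protein-coding genes, 41.1% had at least 1 pSMAD1/5/9 peak within 50 kb after BMP6 and 9.82% in control cells. For SMAD4 the shares were 52.1% and 43.5%. After BMP6, at least 1 pSMAD1/5/9 peak, or none, is thus common by itself, and counts as high as those of Myod1 and Myog were rare. Only 96 genes (0.444%) had as many pSMAD1/5/9 peaks after BMP6 as Myod1 or more, and 60 (0.278%) as many as Myog, where the median gene had 0. For SMAD4 after BMP6, 72 genes (0.333%) reached the count of Myod1 and 261 (1.208%) that of Myog. In control cells, 198 genes (0.917%) reached the SMAD4 count of Myod1 and 997 (4.62%) that of Myog. The counts at Myf5 and Myf6 were less unusual, since 20.8% of genes had at least 3 SMAD4 peaks after BMP6 and 7.64% had at least 4 in control cells. Windows of neighbouring genes overlap, so genes near each other share peaks.

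**Figure D1:**
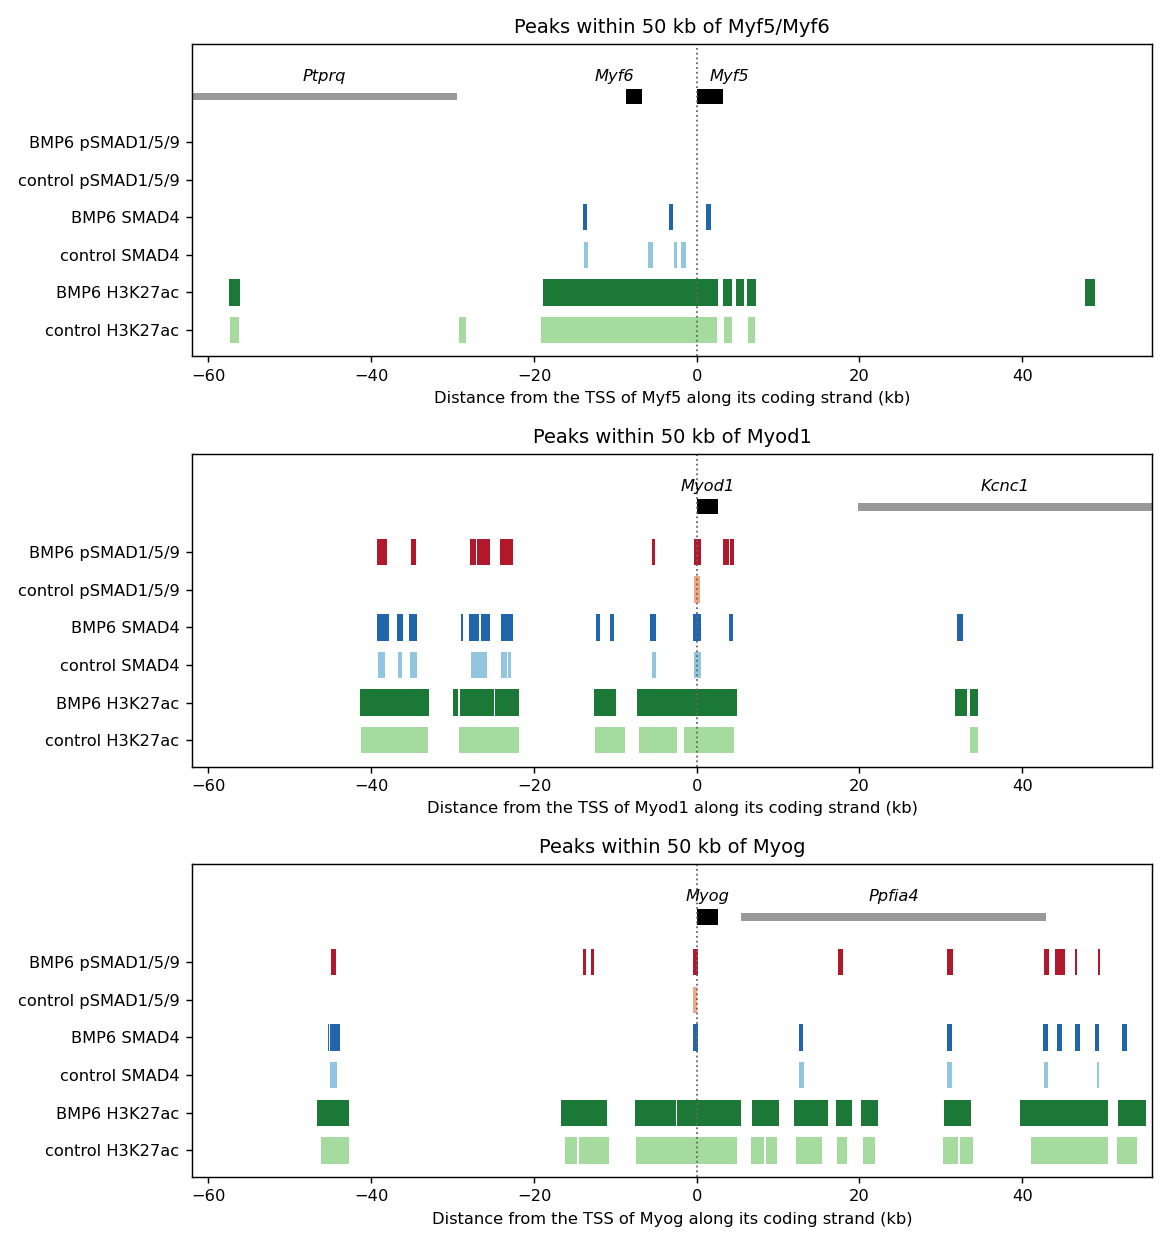
Peaks of the 6 lists around Myf5/Myf6, Myod1 and Myog, to scale, by distance from the TSS in kb along the coding strand, with members in black and other protein-coding genes in grey. The rows for pSMAD1/5/9 are empty at Myf5/Myf6, hold 9 peaks after BMP6 at Myod1 and 10 at Myog, and hold 1 control peak at each of these promoters.

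**Figure D2:**
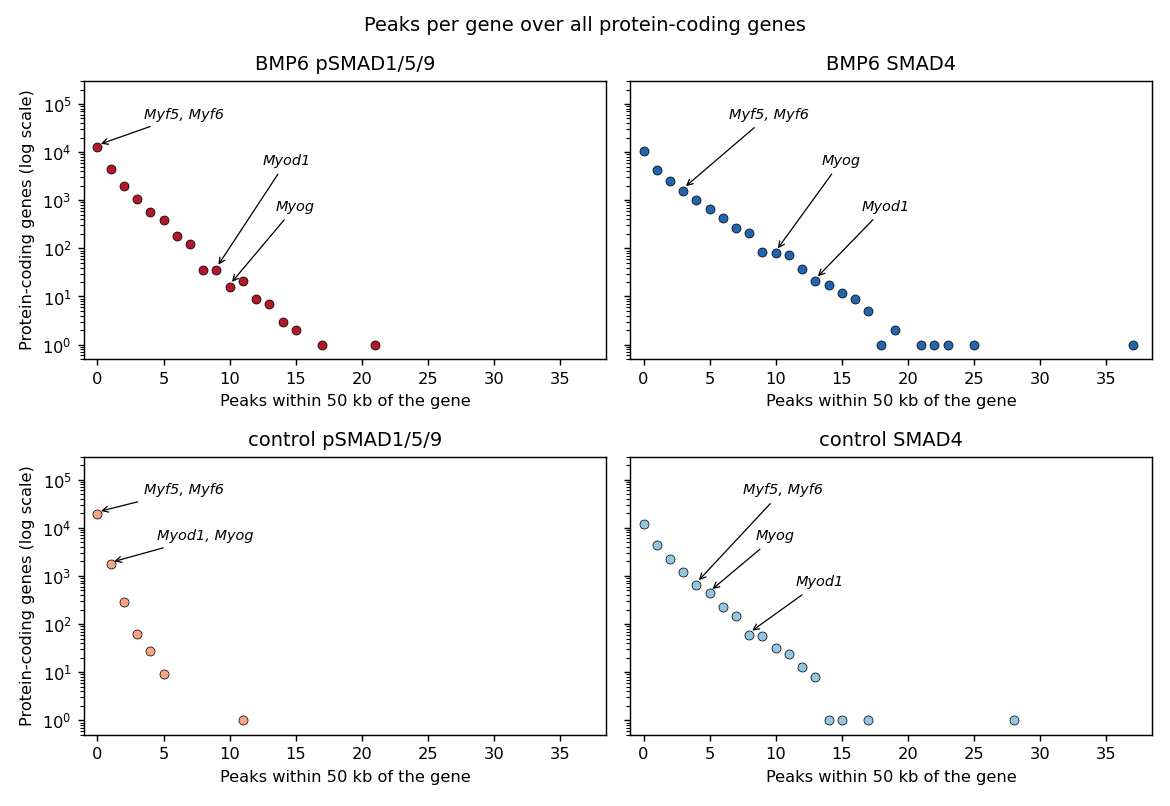
Number of protein-coding genes (log scale) by the number of peaks within 50 kb, in the 4 SMAD lists, with arrows at the members. After BMP6, Myod1 (9) and Myog (10) lie in the sparse right part of the pSMAD1/5/9 panel and Myf5 and Myf6 at 0.

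Myod1 (ENSMUSG00000009471.6) is a gene of 3 exons on chromosome 7, between 46025870 and 46028523 on the plus strand. After BMP6 its pSMAD1/5/9 peaks formed an upstream group and a group around the gene. The strongest of them lay at −38787, with rank 172 (156, 265) of 7339. Further upstream peaks were about as strong, one at −26210 with rank 242 (247, 294) and one at −23007 with rank 263 (291, 289). Weaker upstream peaks lay at −27535 with rank 1072 (1007, 1322) and at −34760 with rank 1208 (1237, 1323). Close to the gene, the promoter peak at −11 had rank 1221 (2065, 636) and covered the TSS and part of the first exon. Past the end of the gene, a peak at 3519 had rank 1267 (1325, 1332) and one at 4157 had rank 2447 (3418, 1623). The weakest was the peak at −5255 with rank 4477 (4545, 3999). In both replicate columns, the peaks at −38787, −26210 and −23007 thus ranked above all others at the locus, the promoter included. The promoter peak ranked below those at −27535 and −34760 in the first column and above them in the second.

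Of these 9 peaks, 8 were intergenic and 1 was at the TSS, and Myod1 had the nearest TSS for all of them. Regulatory elements upstream of Myod1 are well known, a distal regulatory region near the gene and a core enhancer farther away, and they act in muscle precursors of the embryo. Whether the peaks at −5255 and −23007 coincide with them was not tested, as no coordinates of these elements were used here.

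All 9 pSMAD1/5/9 peaks shared at least 1 bp with a SMAD4 peak listed after BMP6, against 73.2% of the whole pSMAD1/5/9 list. In control cells, a SMAD4 peak lay under 7 of the 9, against 57.2% of the list, and a pSMAD1/5/9 peak under the promoter peak alone, against 11.4%. All 9 lay in H3K27ac peaks of both conditions, as did nearly all of the list. Most sites with pSMAD1/5/9 after BMP6 at Myod1 were therefore also listed for SMAD4 and H3K27ac in the control.

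The strongest SMAD4 peak of the control at Myod1 was at −26230, a wide peak with rank 76 (94, 60) of 8577. After BMP6 the same stretch was listed as 2 peaks, at −27349 with rank 959 (1101, 848) and at −26144 with rank 624 (642, 645) of 12860. The strongest SMAD4 peak after BMP6 was at −34765 with rank 403 (691, 216), and the control peak there, at −34700, had rank 529 (756, 373). At the promoter, SMAD4 had rank 2118 (2512, 1662) after BMP6, at −150, and 1334 (1407, 1331) in the control, at 45. All 8 control peaks overlapped one listed after BMP6 (Wilson 95% interval 67.6 to 100%), against 69.7% of the whole control list, which lies within the interval. This interval and those at the other loci cover counting over peaks only. Peaks of a locus are not independent, so the intervals are no test of a locus. The reverse held for 8 of 13, against 45.5% of the whole list, and the 5 SMAD4 peaks listed after BMP6 alone were at −28880, −12239, −10423, 4213 and 32294. Their ranks ran from 5146 to 12438 of 12860. The last of them lay in an intron of Kcnc1, which encodes a voltage-gated potassium channel and has the nearest TSS.

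Myog (ENSMUSG00000026459.7), also with 3 exons, is on chromosome 1 between 134217707 and 134220287, on the plus strand. Its promoter had a pSMAD1/5/9 peak in both conditions, with rank 577 (410, 1156) of 7339 at −191 after BMP6 and rank 328 (263, 437) of 949 at −283 in the control. Both covered the TSS. The control peak was close to the threshold, with a −log10 of the IDR of 1.34, and the control peak at the Myod1 promoter, with rank 367 (332, 407), had 1.72. SMAD4 was listed at the Myog promoter after BMP6 alone, at −147 with rank 2300 (2089, 2936) of 12860. At the Myod1 promoter it was listed in both conditions.

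The strongest pSMAD1/5/9 peak in the Myog window lay far upstream at −44503, with rank 88 (129, 69). SMAD4 peaked at the same place in both conditions, with rank 97 (85, 131) after BMP6 at −44518 and 312 (259, 515) in the control at −44610. This site has another gene nearer to it, Adora1, which encodes an adenosine receptor. The same holds for much of the window. Myog had the nearest TSS for 4 of 10 pSMAD1/5/9 peaks, for 2 of 10 SMAD4 peaks after BMP6 and for 1 of 5 in the control. Ppfia4, which encodes a liprin of synapses and lies on the other strand downstream of Myog, had the nearest TSS for 5, 6 and 3 of them. At Myod1, by contrast, 30 of 31 SMAD peaks had Myod1 as the nearest gene. The count at Myog is thus a count for a stretch with several genes, and which gene a peak acts on cannot be read from the lists.

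The pSMAD1/5/9 peaks nearest to Myog other than the promoter were weak, at −13797 with rank 4998 (4073, 6002), at −12825 with rank 6815 (6129, 6862) and at 17560 with rank 3371 (2690, 4518). These 3 were also the sites with pSMAD1/5/9 and no SMAD4 in either condition. On the side of Ppfia4, the peak at 43016, by the TSS of that gene, had rank 1302 (2581, 529) and that at 44531 had rank 1431 (952, 3002). The replicate columns differed most at 30861, with rank 2545 (5313, 1062). The last peaks, at 46583 and 49358, had ranks 6078 (6167, 5168) and 5780 (5150, 6048). Of the 10 peaks, 7 overlapped a SMAD4 peak after BMP6, against 73.2% of the whole pSMAD1/5/9 list, and 4 one of the control, against 57.2%. All 10 lay in H3K27ac of both conditions, as did nearly all of the list. The 5 control SMAD4 peaks in the window all overlapped one listed after BMP6 (interval 56.6 to 100%), against 69.7% of the whole control list, a share that lies within the interval.

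**Figure D3:**
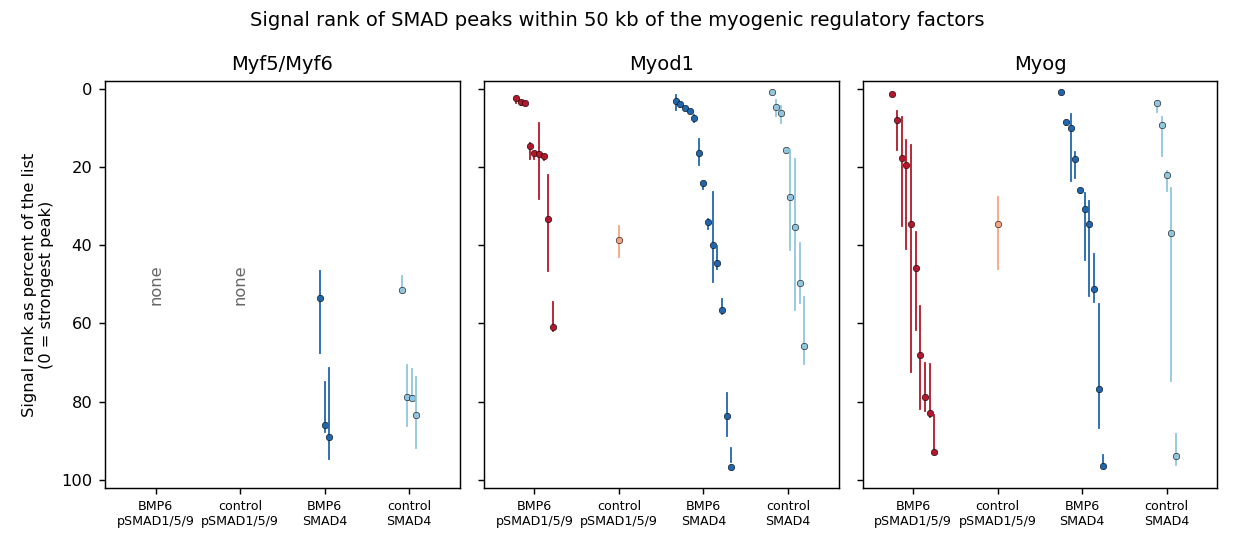
Rank by signal of each SMAD peak near the members, as percent of the peaks in its list (0 is the strongest), for the 4 SMAD lists at the 3 loci. Points are the consensus rank and lines join the ranks by both replicate columns. At Myod1 and Myog the strongest peaks after BMP6 lie near the top, and all peaks at Myf5/Myf6 lie at 46.6% or weaker in every column.

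Myf5 (ENSMUSG00000000435.2, chromosome 10, 107318769 to 107321995) and Myf6 (ENSMUSG00000035923.6, 107328714 to 107330656) lie in tandem on the minus strand, with 8661 bp between their TSSs. Seen from the TSS of Myf6, the SMAD4 peak shared by both conditions lay at −4917 after BMP6, and it is nearer to Myf6 than to Myf5. Its rank was 6887 (5997, 8691) of 12860 after BMP6 and 4421 (4418, 4113) of 8577 in the control, that is, at 53.6% and 51.5% of the list. The strongest SMAD4 peaks at Myod1 and Myog stood at 3.13% and 0.754% after BMP6 and at 0.886% and 3.64% in the control. The other SMAD4 peaks of the locus were not shared. The peaks at −3068 after BMP6 and −2548 in the control were 60 bases apart and so counted as separate, and the peak inside Myf5 at 1580, with rank 11440 (12157, 9167), was 2475 bases from the nearest control peak. That peak overlapped the second of 3 exons and had its summit outside of any exon. Of 4 control SMAD4 peaks at the locus, 1 overlapped a SMAD4 peak listed after BMP6 (25%, Wilson 95% interval 4.56 to 69.9%), against 69.7% of the whole control list, a share that lies within the interval.

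The nearest pSMAD1/5/9 summit to Myf5 after BMP6 was at −687146, with rank 7138 of 7339, and was nearest to Ppp1r12a, which encodes a subunit of myosin phosphatase. In the control it was at 13541799, nearest to Metap2, which encodes a methionine aminopeptidase. Of all protein-coding genes, 14.9% had a TSS at least as far from a pSMAD1/5/9 peak as Myf5 after BMP6, and 1.296% in the control. The stretch without pSMAD1/5/9 thus went far beyond the window. Of 4483 genes with at least 3 SMAD4 peaks after BMP6, 314, Myf5 and Myf6 among them, had no pSMAD1/5/9 peak within 50 kb.

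At the edges of the windows, the last pSMAD1/5/9 peak inside the upstream edge of Myod1 was that at −38787, and the first outside was at −59414 with rank 1558, still nearest to Myod1. At Myog the peak at −44503 was the last inside and one at −94219, with rank 162 and nearest to Mybph, a gene of muscle myosin-binding protein H, the first outside.

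H3K27ac marked all 4 genes in both conditions. Over all genes, 81.7% had an H3K27ac peak within 50 kb after BMP6 and 80.8% in control cells. The 3 loci held 25 H3K27ac peaks after BMP6 and 24 in the control, 6 and 5 at Myf5/Myf6, 8 and 6 at Myod1 and 11 and 13 at Myog. At Myf5 and Myf6, 1 peak ran over Myf6, the sequence between the genes and most of Myf5, with 21560 bp from 107319381 to 107340940 after BMP6 and 21600 bp from 107319501 to 107341100 in the control. It was among the strongest of the genome, with rank 14 (454, 12) of 78050 after BMP6 and rank 1 (15, 3) of 67790 in the control. All 3 SMAD4 peaks after BMP6 and all 4 of the control lay in it, and no pSMAD1/5/9 peak did. Among the 100 strongest H3K27ac peaks after BMP6, 82 overlapped a pSMAD1/5/9 peak of the same cells, and among the 96 that were at least 20 kb wide, 83 did (86.5%), against 7.65% of the whole list. After BMP6, the Myf5/Myf6 domain was thus among the minority of strong and wide H3K27ac peaks without pSMAD1/5/9. In the control such peaks were more common, since no more than 34 of the 100 strongest H3K27ac peaks overlapped a pSMAD1/5/9 peak of the same cells, and 36 of the 61 that were at least 20 kb wide. A wider peak has more bases to overlap, and the median width of the whole H3K27ac list after BMP6 was 1470 bp. The part of width in these shares was not tested.

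At Myod1, the H3K27ac peak over the promoter was 12250 bp wide after BMP6, with rank 956 (6932, 513), and the strongest control peak lay upstream at −24461, with rank 291 (127, 2278). At Myog, the strongest control peak was at −365 with rank 1159 (348, 9349), and after BMP6 the strongest was near Ppfia4 at 43764 with rank 2690 (7570, 1666). The replicate columns differed by more than 10-fold in rank for 3 of these 4 peaks, so the order between conditions is not resolved. The share of the window under H3K27ac peaks was more stable. For Myog it was 47.8% after BMP6 (47.0% and 44.8% by the intervals of each replicate) and 42.8% in the control (40.4% and 40.1%). For Myod1 it was 32.7% (32.2% and 31.8%) and 30.2% (29.0% and 29.1%), for Myf5 25.3% (24.8% and 23.9%) and 23.5% (23.1% and 23.2%), and for Myf6 25.6% (25.3% and 24.2%) and 24.9% (24.4% and 24.5%). By the replicate intervals, the values after BMP6 lay above those of the control for Myog, Myod1 and Myf5 and overlapped them for Myf6. The same held for 55% of all genes, and the windows of Myf5 and Myf6 overlap, so the 3 of 4 members do not stand apart from the background. The median over all genes was also higher after BMP6, with 7.54% against 6.11%. Only 1.46% of genes were covered as much as Myog after BMP6, against 6.99% for Myod1 and 13.2% for Myf5.

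**Figure D4:**
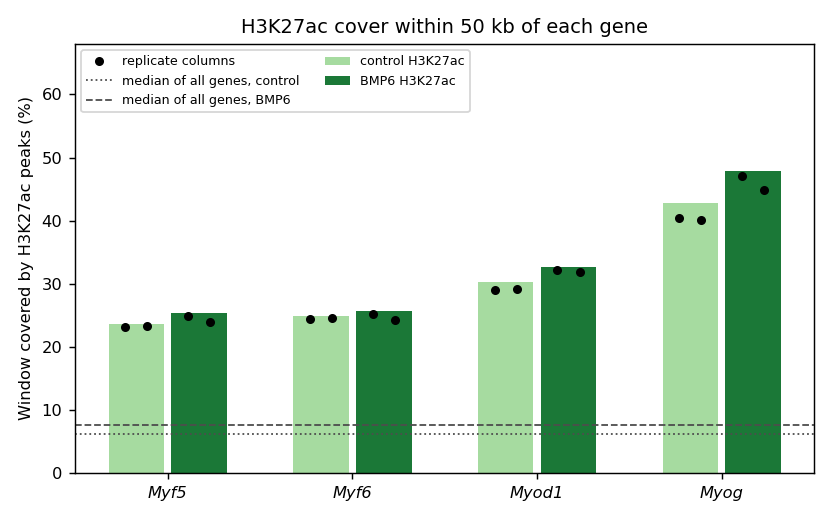
Share of the window of each gene (the gene and 50 kb on either side) under H3K27ac peaks, in percent, in control and BMP6-stimulated cells. Bars are the consensus, dots the intervals of each replicate, and lines the medians of all genes (6.11% and 7.54%), and the dots of both conditions overlap for Myf6 alone.

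Merging overlapping SMAD peaks of all 4 lists gave 31 sites, 6 at Myf5/Myf6, 12 at Myod1 and 13 at Myog. Of these, 17 had pSMAD1/5/9 after BMP6, 7 at Myod1 and 10 at Myog. At 10 of the 17, SMAD4 was listed in both conditions, at 4 after BMP6 alone and at 3 in neither. A further 3 sites had SMAD4 in both conditions without pSMAD1/5/9, 1 at each locus. All 31 sites lay in H3K27ac peaks after BMP6 and 30 in the control, the exception being the site in Kcnc1. This is near the background. In the whole lists, 98.2% of pSMAD1/5/9 and 95.7% of SMAD4 peaks after BMP6 overlapped H3K27ac of the same cells. In the control, 96.4% of SMAD4 peaks did. Near the 4 genes, 14 of 26 SMAD4 peaks after BMP6 overlapped a control peak (53.8%, Wilson 95% interval 35.5 to 71.2%), against 45.5% of the whole list. The interval covers counting over peaks only, and peaks of a locus are not independent.

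The rank of these 14 shared SMAD4 peaks was set side by side as percent of the list. In 5 of them both replicate columns ranked the peak higher after BMP6 than in the control, in 2 the control was higher, and in 7 the columns overlapped. Over all 5852 shared peaks, the BMP6 list ranked higher in 36.2% and the control list in 16.3%, so the members were near the background. The peaks that ranked higher after BMP6 lay at −36491, −23234 and −5206 from Myod1 and at −44518 and 49208 from Myog. The peak at −44518 stood at 0.754% of the list (0.661%, 1.02%) after BMP6 and at 3.64% (3.02%, 6.00%) in the control. The peak at −23234 stood at 5.72% (6.28%, 5.33%) after BMP6 and at 27.7% (41.1%, 15.6%) in the control. In the control, however, that stretch was listed as 2 peaks, at −23503 with rank 2379 and at −23037 with rank 3038. Only the stronger was set beside the 1 peak after BMP6, and the part of this split in the difference was not tested. The 2 that ranked higher in the control were those under the wide control peak at −26230, so 1 control peak gave both cases. The BMP6 list is longer, so a percent of the list is not the same strength in both.

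The 200-bp windows around the summits were searched on both strands. The E-box CANNTG was found in 17 of 19 pSMAD1/5/9 windows near the members after BMP6 and in 67.4% of the whole list, in 23 of 26 SMAD4 windows after BMP6 (67.0%) and in 10 of 17 in the control (69.5%). The form CAGCTG, a kind of E-box that MYOD and MYOG are known to bind, is also counted in CANNTG. It was found in 10 of 19 pSMAD1/5/9 windows after BMP6 (31.1%). For SMAD4 it was found in 11 of 26 windows after BMP6 (29.1%) and in 7 of 17 in the control (32.7%). Of motifs known for SMADs, GGAGCC was found in 5 of 19 pSMAD1/5/9 windows (25.2%) and GGCGCC in 3 (7.75%), all 3 at Myod1, and CAGAC, the SMAD-binding element, in 6 (48.6%) and in 14 of 26 SMAD4 windows after BMP6 (53.4%). GTCTAGAC, which contains no other motif of the search, was found in 0 windows near the members and in 1.26% of the SMAD4 list after BMP6. The windows overlap where peaks of several lists share a summit, so they are not independent.

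In windows of 200 bp, all 13 SMAD4 windows at Myod1 after BMP6 and 9 of 10 at Myog held an E-box, and 1 of 3 at Myf5/Myf6 did. In windows of 400 bp all 26 did, at all 3 loci, against 85.2% of the list. Within 200 bp, CAGCTG was found in 8, 3 and 0 of them. The printed Myog window at −44518 holds 4 E-boxes, 2 of them CAGCTG, and that at the Myog promoter holds 1. Among the printed Myod1 windows, those at −26144 and −23234 hold 3 each and those at −5206 and −150 hold 2 each. In the window inside Myf5, CAGAC was matched 6 times in either direction. Most of these matches lay in a short tandem repeat, where they share bases, and the peak had rank 11440 of 12860. The GC content of SMAD4 windows after BMP6 was 43.5 to 46.0% at Myf5/Myf6, 49.5 to 72.5% at Myod1 and 43.5 to 65.0% at Myog, and the median of the list was 55%. The part of base composition in the motif counts was not tested.

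The other genes of myogenic regulation were read from a list of 30 genes with partners, inhibitors, upstream factors and targets of the 4 members. Of these, 24 (80.0%) had a pSMAD1/5/9 peak within 50 kb after BMP6 and 12 (40.0%) in the control, and 26 and 23 had a SMAD4 peak. Over all protein-coding genes, the shares in the same order were 41.1%, 9.82%, 52.1% and 43.5%. The median number of pSMAD1/5/9 peaks after BMP6 was 3.5, against 0 over all genes. Pax7, the transcription factor that marks MuSCs, had 21 after BMP6 and 11 in the control, the highest count of all genes in both lists. Only Snai1, a repressor of E-box targets, with 11, and Id3, an inhibitor of E proteins, with 10, also had at least as many as Myod1. Id1, of the same family as Id3, had 7, and Mymk, the fusion protein myomaker, had 4. Like Myf5 and Myf6, 6 genes of the list had none, among them Mstn, which encodes the growth inhibitor myostatin. The list is one of genes of interest in these cells, and nothing is drawn from its share.

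By the number of peaks in the 6 lists, on the scale of log2(peaks + 1), the genes nearest to Myod1 were Hook2, Best2 and Get3, at Euclidean distances of 0.37, 0.40 and 0.47. Each had 8 pSMAD1/5/9 peaks after BMP6, 1 in the control and 11 and 7 SMAD4 peaks, with the same strongest peaks, as they lie together. Those nearest to Myog were Cd63, Rdh5 and Bloc1s1, also neighbours of each other, at 0.34, 0.35 and 0.35, with 9 and 1 pSMAD1/5/9 and 8 and 5 SMAD4 peaks each. For Myf5 they were Zcchc10 (0.39), Kcne1 (0.53) and Cby3 (0.53), and for Myf6 Zcchc10 (0.47), Jakmip1 (0.53) and Yju2 (0.57), all without pSMAD1/5/9 peaks and with 3 or 4 SMAD4 peaks after BMP6.

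The stricter IDR threshold of 0.01 was applied to the few peaks of each locus, and no difference between loci was tested. At Myod1, 8 of 9 pSMAD1/5/9 peaks after BMP6 passed it, against 50.1% of the list. At Myog 5 of 10 did, which is near the share of the list. For SMAD4 after BMP6 it was 11 of 13, 8 of 10 and, at Myf5/Myf6, 0 of 3, against 49.2%. For SMAD4 in the control it was 6 of 8, 3 of 5 and 1 of 4, against 41.7%. Neither of the control pSMAD1/5/9 peaks passed it, and 14.9% of their list did.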

How the data were processed

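CUT&Tag peak lists were used as deposited, with GRCm39 coordinates per the labels. For each antibody, the authors brought all libraries to the same number of reads, which were aligned with Bowtie2 2.5.4 and filtered with SAMtools, called peaks per replicate with JAMM and combined 2 replicates per condition with IDR at 0.05. The deposited lists have 20 columns without a header. The signal of a peak is a score of the authors' peak caller, equal to the sum of both replicate columns, and a scaled IDR score and the −log10 of the IDR are also deposited. Reads per peak are not part of the lists, which leaves the depth unknown, and precision is set by having 2 replicates.

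Canonical transcripts of 21603 protein-coding genes on autosomes and X were taken from GENCODE. Overlap means at least 1 bp, and a peak within 2 kb of a TSS was placed at the TSS. Python 3.11.15, pandas 2.3.3, pysam 0.24.0, scipy 1.17.1 and matplotlib 3.10.9 were used, and the counting was tested on simulated data. The members and gene lists were chosen with earlier results of these data known. Named genes were the members, the gene with the nearest TSS to each SMAD peak, at most 6 of the 30 listed genes and the 3 genes most alike to each member, leaving out those within 200 kb. The genes nearest to the closest pSMAD1/5/9 peaks of Myf5, and Mybph, were named after their values were seen. Differential binding needs reads and was not tested. Alternatives covered the window, the IDR threshold, the assignment, the transcripts, the overlap, the replicate column, the ranking value and the motif window.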

Additional observations from a re-analysis of the deposited data

How the results depend on the processing

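Of 152 values recomputed under an alternative, 92 stayed the same by the rule for their kind. Counts had to stay within 1.5 times the main value, and ranks and H3K27ac cover within the spread of the replicate columns. Ranks by a single column were thus judged by a spread taken from the same columns. The spans of all transcripts of the members were almost those of the canonical ones, so that alternative could hardly change a count. The number that stayed the same is therefore no measure of robustness. Overlap shares had to stay within the Wilson 95% interval of the main share, which covers counting over peaks only. With 20 kb in place of 50 kb, the 4 genes had 8 pSMAD1/5/9 and 10 SMAD4 peaks after BMP6, 7 SMAD4 peaks in the control, and 13 and 15 H3K27ac peaks after BMP6 and in the control. With 100 kb they had 4 pSMAD1/5/9 peaks in the control and 40 and 41 H3K27ac peaks. At an IDR of 0.01 they had 0 pSMAD1/5/9 and 10 SMAD4 peaks in the control, and 0% of pSMAD1/5/9 peaks after BMP6 overlapped the control. Of control SMAD4 peaks, 57.1% overlapped one after BMP6 with 20 kb. Of control H3K27ac peaks, 70.8% overlapped with 50% of both lengths, and 100% at an IDR of 0.01.

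Ranked by the IDR score, where many peaks tie at 1, the strongest peak had rank 1 at Myod1 and at Myog in the pSMAD1/5/9 list after BMP6 and in both SMAD4 lists, rank 300 and 833 in the control pSMAD1/5/9 list, and 3457 at Myf5/Myf6 in the control SMAD4 list. With 20 kb, the strongest peaks at Myod1 had rank 1221 for pSMAD1/5/9 and 2118 for SMAD4 after BMP6, and 1334 for SMAD4 and 5980 for H3K27ac in the control, and those at Myog had 577, 2300 and, for control SMAD4, 3152. By single replicate columns, ranks ran from 4113 to 4418 (control SMAD4), 12 to 454 (H3K27ac after BMP6) and 3 to 15 (control H3K27ac) at Myf5/Myf6. At Myod1 they ran from 156 to 265 (pSMAD1/5/9 after BMP6), 513 to 6932 (H3K27ac after BMP6) and 127 to 2278 (control H3K27ac). At Myog they ran from 85 to 131 and 259 to 515 (SMAD4 after BMP6 and control) and 1666 to 7570 and 348 to 9349 (H3K27ac after BMP6 and control).

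H3K27ac cover with 20 kb, after BMP6 and in the control, was 57.5 and 54.4% for Myf5, 59.2 and 56.6% for Myf6, 34.96 and 33.8% for Myod1 and 70.9 and 62.7% for Myog. At an IDR of 0.01 it was 24.1 and 21.9% for Myf5, 24.4 and 23.2% for Myf6, and 32.0% for Myod1 after BMP6. In windows of 400 bp, motifs were counted at the 26 SMAD4 summits after BMP6, with the share of the whole list in parentheses. CANNTG was found at 26 (85.2%), CAGCTG at 18 (43.4%), CAGAC at 22 (73.6%) and CAGATG at 10 (28.4%). TGANTCA was found at 6 (26.5%), TGGGAA at 5 (35.7%), TCAGGTT at 3 (4.84%) and TAATTA at 2 (4.30%). The wider window holds more sequence. The cause of the other changes was not tested.

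No paired analysis was possible because the replicate columns carry no replicate number. Each list is 1 consensus, so no difference in the number of peaks at a locus has an error. The ranks and the H3K27ac cover have the spread of 2 replicate columns only. A peak that did not reach the IDR threshold, which is set on both replicates together, is not listed.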
